A study of Mus musculus with 10 samples.

Results

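The tripartite motif (TRIM) genes were examined in splenic B cells of mice with and without liver fibrosis. Members were the protein-coding genes of the count table whose symbol is Trim followed by a digit, with 1 symbol left out by the rule. This gave 67 of the 54532 genes in the table. The fibrosis group (5 libraries) came from fibrotic mice given carbon tetrachloride, a solvent that injures hepatocytes, by intraperitoneal injection for 4 weeks. Wildtype mice gave the 5 control libraries, and the labels give no strain, age, sex or vehicle for either group. No source used here says how the B cells were isolated or that each library is a separate animal, so p-values measure the spread between libraries and may reflect technical spread in part.

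TRIM proteins share an amino-terminal RING domain, B-box zinc fingers and a coiled coil, followed by a variable carboxy-terminal part. The RING domain makes most of them E3 ubiquitin ligases, enzymes that attach ubiquitin to a target protein chosen largely by the carboxy-terminal part. Many are known from antiviral defence, where they act on RNA sensors or bind viral capsids, and several are themselves induced by interferon. Others work in fixed lineages: Trim10 and Trim58 are red cell genes, and Trim28, Trim33 and Trim24 are chromatin regulators.

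Of the 67 TRIM genes, 41 had enough reads to be tested. Among these, 10 were higher and 6 were lower in fibrosis (edgeR quasi-likelihood test, Benjamini-Hochberg adjusted p under 0.05 over all 14283 genes tested). Over all tested genes, 18.6% were called higher and 17.2% lower, so many genes differed between these groups. The largest differences were decreases: Trim2, Trim58 and Trim10 fell more than 2-fold, and no tested TRIM gene rose that much. The median log2 fold change (fibrosis minus control) was 0.14 over the 41 genes and 0.05 over all tested genes. With libraries scaled by their totals alone, which moved the median gene by -0.11, 7 TRIM genes were called higher and 7 lower, beside 12.4% and 23.1% of all tested genes. In bulk libraries, fewer cells of a type and less RNA per cell cannot be told apart, and this holds for every difference below.

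Total counts ranged from 13439100 to 17954551 per library. The 10 B cell markers summed to 7735 to 11108 CPM (counts scaled to a common library size) in fibrosis and 7392 to 8438 in control libraries, and 3 of them were called higher. Among markers of other cells, none was at 0 in all libraries. Of 14 erythroid markers 9 were called lower and 0 higher, and all 9 tested platelet markers were called higher. Among dendritic cell markers 5 of 10 were called higher, among natural killer cell markers 4 of 10, and among plasma cell markers 2 of 7. A single T cell marker (of 10) and a single macrophage marker (of 9) were higher, and 0 of 10 neutrophil markers were called by edgeR at an adjusted p under 0.05, against 2 at an unadjusted p under 0.05. Fibrosis 4 and 5 stood apart, with neutrophil marker sums at 307% and 381% of the control mean and macrophage sums at 178% and 194%. The part of these other cells in the results on TRIM genes was not tested, except where a value is given.

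**Figure D1:**
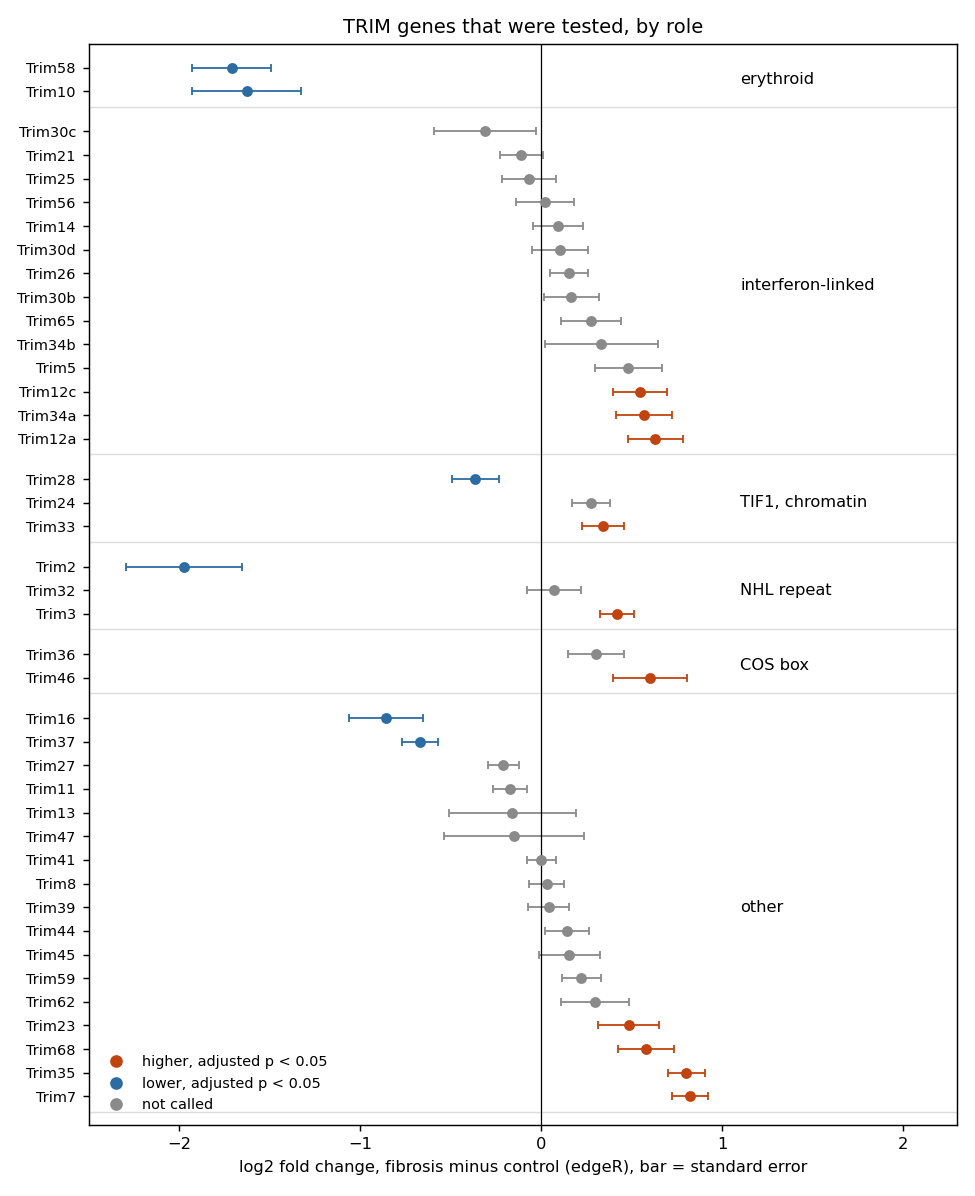
Log2 fold change (fibrosis minus control, edgeR) of each tested TRIM gene on the horizontal axis, grouped by role, with bars for the standard error and colour for the call. The erythroid genes and Trim2 lie far to the left, and all genes that were called higher lie below a log2 fold change of 1.

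Promoter sequences of the genes the results turn on are given first, so that their motifs can be set beside the values that follow. Sequences are from RefSeq on GRCm38.p6, 250 bases before to 50 bases after each annotated start, and 52 of the 67 TRIM genes matched, with 65 promoters. AGATAA, the letters bound by GATA factors of the erythroid lineage, and GAAANNGAA, part of the element bound by interferon regulatory factors, were searched on both strands. AGATAA occurred in 11.2% of all 32851 promoters and in 4 of the 65 TRIM promoters. Trim10 had a match and Trim58 had none in this window. Trim34b, Trim39 and Trim72, which are not erythroid members and were not called, had the remaining matches. Each line below is 80 bases upstream of the start, 5′ to 3′ on the gene's strand, and capitals mark the motif, which here reads as its reverse complement. The Trim10 match began 163 bases before the start, at chr17:36869374-36869453 (plus strand) for the whole window.
Trim10: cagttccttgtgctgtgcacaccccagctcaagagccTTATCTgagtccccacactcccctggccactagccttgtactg

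GAAANNGAA occurred in 8.56% of all promoters and in 11 of the 65 TRIM promoters. Of the 14 interferon-linked genes with a promoter in RefSeq, 9 had a match: Trim5, Trim12a, Trim12c, Trim21, Trim25, Trim26, Trim30d, Trim34a and Trim34b. The other matches were in Trim2 and Trim7. Of these windows 5 are shown, 3 from genes of 1 cluster on chromosome 7, then Trim25, an interferon-linked gene that was not called, and Trim7, which was called without being on the interferon-linked list. The windows are chr7:104288112-104288191 for Trim5, chr7:104353350-104353429 for Trim12c and chr7:104507850-104507929 for Trim30d (minus strand), with chr11:88999323-88999402 for Trim25 and chr11:48825986-48826065 for Trim7 (plus strand).
Trim5: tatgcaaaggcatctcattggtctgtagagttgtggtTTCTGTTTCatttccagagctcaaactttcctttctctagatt
Trim12c: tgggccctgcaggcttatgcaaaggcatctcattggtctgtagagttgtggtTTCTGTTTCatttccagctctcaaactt
Trim30d: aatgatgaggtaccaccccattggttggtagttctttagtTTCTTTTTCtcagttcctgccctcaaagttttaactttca
Trim25: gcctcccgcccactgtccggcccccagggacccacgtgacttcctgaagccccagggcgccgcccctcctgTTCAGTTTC
Trim7: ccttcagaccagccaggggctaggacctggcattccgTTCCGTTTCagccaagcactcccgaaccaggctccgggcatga
The match began 48, 28, 40, 9 and 115 bases before the start of Trim5, Trim12c, Trim30d, Trim25 and Trim7. The longest identical run in the upstream sequences of Trim5 and Trim12c had 71 bases. It began 218 and 199 bases before their starts and lay upstream of the motif. The printed lines of both genes also read alike around the motif itself, so their matches lie in shared sequence. A match describes the letters in this window and is not evidence that a factor binds there.

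Trim10 and Trim58, the erythroid members, fell in fibrosis. Trim10 encodes a RING protein needed for terminal red cell differentiation, and Trim58 encodes a ligase that acts on the motor protein dynein during the loss of the erythroblast nucleus. Trim10 (chr17:36869574-36877833) stood at 21.0, 13.4, 26.0, 42.9 and 13.1 CPM in fibrosis 1 to 5 and at 70.5, 70.1, 57.8, 64.0 and 95.6 CPM in control 1 to 5. The groups did not overlap, and fibrosis 4 was the highest of its group. The log2 fold change was -1.63 (SE 0.30, edgeR adjusted p = 0.00178). Trim58 (chr11:58640465-58652404) was less abundant, at 1.71, 2.03, 2.27, 1.90 and 1.04 CPM in fibrosis libraries against 5.79, 6.82, 5.27, 4.64 and 6.91 CPM in control libraries. Here too every fibrosis library lay below every control library, with a log2 fold change of -1.71 (SE 0.22, edgeR adjusted p = 8.78e-05).

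Most erythroid markers other than the globins were also lower, whereas the globins were not called. The 10 erythroid markers other than the globins, which include the transcription factors Klf1 and Gata1, summed to 261 to 954 CPM in fibrosis libraries against 2192 to 3554 CPM in control libraries. In fibrosis 1 to 5 that sum was 29.0%, 15.8%, 29.6%, 36.1% and 9.88% of the control mean. Trim10 was at 29.3%, 18.8%, 36.4%, 59.9% and 18.3% of its own control mean in the same libraries, and Trim58 at 29.1%, 34.5%, 38.6%, 32.3% and 17.7%. The sum and both genes were thus far below the control mean in all 5 fibrosis libraries, with fibrosis 5 lowest for each. Alas2 and the 4 globins were the erythroid markers not called. Of the globins, Hba-a2, Hbb-bs and Hbb-bt had positive log2 fold changes (1.20, SE 0.80; 0.34, SE 0.62; 0.08, SE 0.61) and Hba-a1 a negative one (-0.41, SE 0.49), with edgeR adjusted p from 0.274 to 0.930. With the globins included, the sum was 35.1%, 18.1%, 40.5%, 148% and 64.0% of the control mean in fibrosis 1 to 5 and overlapped between groups, at 934 to 7625 CPM in fibrosis libraries against 3958 to 6492 CPM in control libraries. No erythroid marker was at 0 in all libraries. The part of a differing share of erythroid cells in the levels of Trim10 and Trim58 was not tested.

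**Figure D2:**
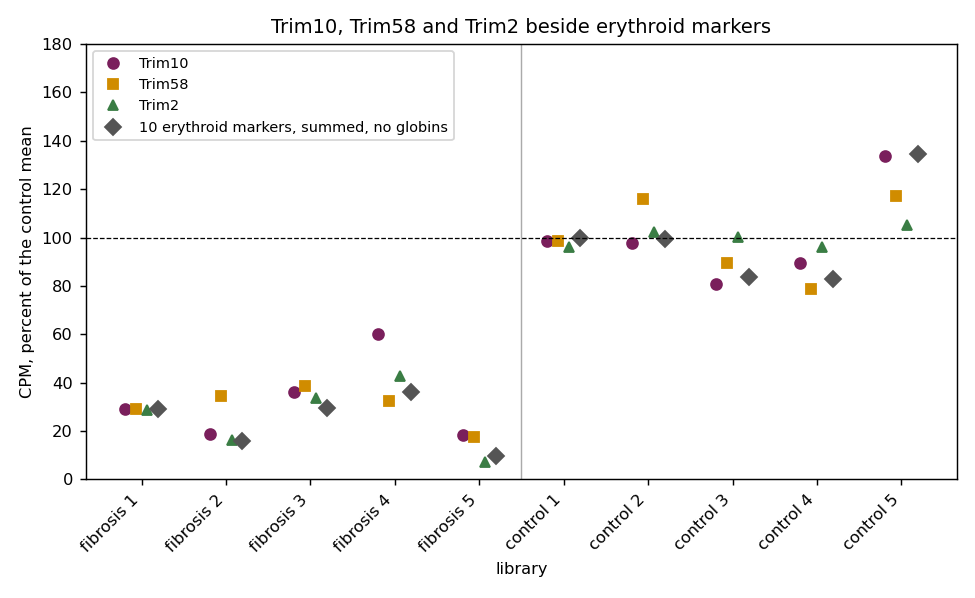
CPM of Trim10, Trim58 and Trim2 and the summed CPM of the 10 erythroid markers other than globins in each library, as a percent of the mean of the 5 control libraries. Each point is 1 library, and all 4 measures are below 60% in every fibrosis library and above 78% in every control library.

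Trim2 had the largest fold change among the TRIM genes and is not on the erythroid list. It belongs to the members with a carboxy-terminal NHL repeat and is known as the ligase of the neurofilament light chain in neurons. It stood at 2.38, 1.36, 2.81, 3.57 and 0.586 CPM in fibrosis 1 to 5 and at 8.04, 8.53, 8.35, 8.03 and 8.78 CPM in control 1 to 5. The log2 fold change was -1.97 (SE 0.32, edgeR adjusted p = 4.81e-04), without overlap. As a percent of its control mean, Trim2 was at 28.5, 16.2, 33.7, 42.8 and 7.0 in fibrosis 1 to 5, so that fibrosis 4 was highest and fibrosis 5 lowest, as for the erythroid marker sum without globins. The controls were within 96.2% to 105% of their mean for Trim2 and within 82.8% to 134% for that erythroid sum. The relation of Trim2 to erythroid RNA was not tested.

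Of the other NHL members, Trim3 was higher and Trim32 was not called. Trim3, a brain-enriched ligase, was at 24.1, 19.2, 22.0, 21.5 and 22.5 CPM in fibrosis libraries against 16.1, 16.0, 15.5, 17.8 and 16.4 CPM in control libraries. Its lowest fibrosis library was above its highest control library, with a log2 fold change of 0.42 (SE 0.09, edgeR adjusted p = 0.00376). Trim71, the remaining NHL member, had 0 counts in all libraries.

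The interferon-linked members were mostly not called. Of 16 such genes 14 were tested, 3 were higher and 0 were lower, beside 18.6% and 17.2% of all tested genes. Their median log2 fold change was 0.16, with a range from -0.31 to 0.63. No gene of this list separated the groups without overlap, and 4 of them had an unadjusted p under 0.05. The genes that rose, Trim12a, Trim12c and Trim34a, are neighbours in 1 cluster on chromosome 7. Trim12a and Trim12c are mouse relatives of the primate TRIM5 protein that restricts retroviruses.

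Trim12a (chr7:104299894-104315466) was at 56.0, 74.0, 87.3, 87.0 and 93.2 CPM in fibrosis libraries against 40.8, 44.1, 66.0, 53.2 and 52.6 CPM in control libraries, a log2 fold change of 0.63 (SE 0.15, edgeR adjusted p = 0.00608). Trim12c (chr7:104338754-104353362) was at 47.6, 73.6, 60.0, 70.0 and 83.2 CPM in fibrosis libraries against 45.2, 40.4, 58.1, 45.7 and 39.3 CPM in control libraries, a log2 fold change of 0.55 (SE 0.15, edgeR adjusted p = 0.0110). Trim34a (chr7:104244457-104262234) was at 49.1, 77.7, 67.1, 52.9 and 59.8 CPM in fibrosis libraries against 39.3, 32.6, 56.4, 37.5 and 40.5 CPM in control libraries, a log2 fold change of 0.57 (SE 0.15, edgeR adjusted p = 0.0114). In all 3 genes fibrosis 1 was the lowest fibrosis library and control 3 the highest control library, and the other 4 controls lay below every fibrosis library. Without fibrosis 4 and 5, Trim12c had a log2 fold change of 0.41 and was no longer called (edgeR adjusted p = 0.0512).

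Trim5, a neighbour of these genes, was at 32.0 ± 8.34 CPM in fibrosis libraries against 22.9 ± 5.06 CPM in control libraries (SD, n = 5 each) and was not called (log2 fold change 0.48, SE 0.19, edgeR adjusted p = 0.0595). Control 3, at 31.6 CPM, was apart from the other controls. Without control 3 the log2 fold change of Trim5 was 0.63 (edgeR adjusted p = 0.0159), and without fibrosis 1 it was 0.60 (adjusted p = 0.0131). Over the 8 tested genes of the cluster, which runs from Trim6 to Trim30d, the median log2 fold change was 0.41. Of these, 3 were called higher and 0 lower, beside 18.6% and 17.2% of all tested genes. The remaining tested cluster members were Trim34b (0.33, SE 0.31), Trim30b (0.17, SE 0.15), Trim30d (0.10, SE 0.15) and Trim30c (-0.31, SE 0.28), with edgeR adjusted p from 0.420 to 0.630.

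Reads of these neighbours may not be fully separable. Cutting the longest coding transcript of each gene into 50-base stretches, 61.9% of those of Trim34a occurred also in transcripts of another gene, 41.3% in Trim34b. For Trim5 the share was 38.4% (24.7% with Trim12c), for Trim12c 34.4% and for Trim12a 23.6%. The counts of Trim5, Trim12a, Trim12c, Trim34a and Trim34b are therefore uncertain as values of single genes, since no source used here says how the counting treated shared reads. Trim30b, Trim30c and Trim30d shared 1.11%, 0.66% and 8.29%.

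**Figure D3:**
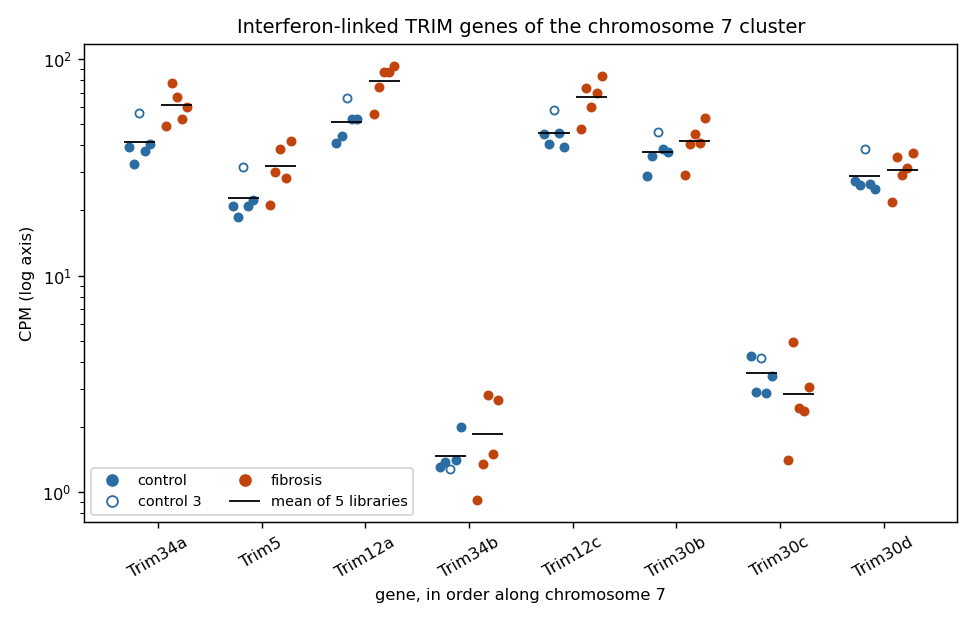
CPM (log axis) of the tested interferon-linked TRIM genes of the chromosome 7 cluster, 1 point per library, with a line for the mean of 5 libraries and an open symbol for control 3. In Trim5, Trim12a, Trim12c and Trim34a the control 3 point lies above the other controls and within the range of the fibrosis libraries.

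The members that act on RNA sensing outside the cluster gave no call. Trim25, the ligase that ubiquitylates the RNA sensor RIG-I, was at 178.5, 287.1, 156.4, 158.8 and 189.4 CPM in fibrosis libraries against 203.4, 198.1, 222.7, 182.0 and 209.9 CPM in control libraries (log2 fold change -0.07, SE 0.15, edgeR adjusted p = 0.765). Fibrosis 2 was the highest of all 10 libraries, while 3 fibrosis libraries were below every control. Without fibrosis 4 and 5 the log2 fold change of Trim25 was 0.04, and without fibrosis 2 it was -0.25 (edgeR adjusted p = 0.0588). Trim65, a ligase of the sensor MDA5, had a log2 fold change of 0.28 (SE 0.17, adjusted p = 0.217), and Trim14, an adaptor of mitochondrial antiviral signalling, 0.09 (SE 0.14, adjusted p = 0.640).

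Trim56, linked to sensing of nucleic acids, stood at 94.4 ± 21.8 CPM in fibrosis libraries against 93.0 ± 16.3 CPM in control libraries (SD, n = 5 each). Its log2 fold change was 0.02 (SE 0.16, edgeR adjusted p = 0.927). Trim21, the cytosolic antibody receptor that targets antibody-coated virus for degradation, had -0.11 (SE 0.12, adjusted p = 0.502). Trim26 had 0.16 (SE 0.11, adjusted p = 0.271), and without fibrosis 4 and 5 it was 0.28 (adjusted p = 0.0238).

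Other interferon-induced genes and other parts of the sensing pathway were read beside these members. Of 20 interferon-induced genes 0 were higher and 5 were lower, beside 18.6% and 17.2% of all tested genes. The median log2 fold change of the 20 genes was -0.30. Mx1, a dynamin-like antiviral GTPase, had the smallest p among them, at 13.8 ± 2.51 CPM in fibrosis libraries against 20.6 ± 3.04 CPM in control libraries (SD, n = 5 each; log2 fold change -0.58, SE 0.14, edgeR adjusted p = 0.00579). Of 10 genes of the RIG-I pathway, 1 was called higher and 0 lower, beside 18.6% and 17.2% of all tested genes. The called gene was Tank, an adaptor that binds TRAF proteins and the kinase TBK1 (log2 fold change 0.61, SE 0.11, edgeR adjusted p = 0.00103). At an unadjusted edgeR p under 0.05 there were 6 of the 10 genes. The median of that list was 0.10. The 3 interferon-linked TRIM genes that rose thus did so in libraries where no gene of the interferon-induced list was called higher.

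The TIF1 members pair the TRIM motif with a PHD finger and a bromodomain and act on chromatin, and they differed in direction. Trim28, the corepressor that KRAB zinc finger proteins recruit to silence retroelements, fell. It was at 451.1, 399.8, 303.1, 305.6 and 268.4 CPM in fibrosis libraries against 466.2, 464.4, 415.7, 439.8 and 436.4 CPM in control libraries, a log2 fold change of -0.36 (SE 0.13, edgeR adjusted p = 0.0459). Fibrosis 1 lay inside the control range, and the other fibrosis libraries were below it. Without fibrosis 4 and 5 the log2 fold change was -0.20 and the call was lost (adjusted p = 0.182). Trim28 overlaps Zbtb45 on the opposite strand over 6137 bases. Zbtb45 had 1978 counts in fibrosis and 3945 in control libraries, and no source used here says whether counting used strand. Of the 3196 50-base stretches of the longest coding transcript of Trim28, 0 occurred in transcripts of another gene. The part of shared reads outside that transcript was not tested.

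Trim33, a regulator of SMAD signalling and of blood cell differentiation, rose, at 50.8, 66.8, 67.6, 51.6 and 51.3 CPM in fibrosis libraries against 41.7, 44.1, 55.9, 43.7 and 41.9 CPM in control libraries. Its log2 fold change was 0.34 (SE 0.12, edgeR adjusted p = 0.0362), and control 3 alone among the controls reached the fibrosis range. Trim24, a nuclear receptor cofactor, was at 43.6 ± 5.80 and 36.1 ± 3.64 CPM (SD, n = 5 each) in fibrosis and control libraries and was not called (0.27, SE 0.11, adjusted p = 0.0582). Among 6 genes of the silencing complex around Trim28, 3 were lower and 0 higher, beside 17.2% and 18.6% of all tested genes. The median log2 fold change of the 6 genes was -0.17. Cbx5, the heterochromatin protein that binds Trim28, had the smallest p of these, at 90.3 ± 12.7 CPM in fibrosis libraries against 149.8 ± 19.1 CPM in control libraries (SD, n = 5 each; log2 fold change -0.73, SE 0.11, edgeR adjusted p = 3.66e-04).

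The TRIM genes that rose most were Trim7 and Trim35, which are on none of the named role lists. Trim35 was named for a role in the lineage choice of haematopoietic cells, and Trim7 encodes a protein that binds glycogenin, the primer of glycogen synthesis. Trim35 was at 222.9, 239.7, 214.8, 168.0 and 197.8 CPM in fibrosis libraries against 133.3, 118.2, 121.3, 111.6 and 113.8 CPM in control libraries, a log2 fold change of 0.80 (SE 0.10, edgeR adjusted p = 8.23e-05). Trim7 was at 118.8, 118.2, 127.8, 90.5 and 107.8 CPM in fibrosis libraries against 57.7, 62.2, 69.8, 62.7 and 66.4 CPM in control libraries, a log2 fold change of 0.82 (SE 0.10, adjusted p = 6.53e-05). In both genes every fibrosis library was above every control library, and fibrosis 4 was the lowest of its group. Trim7 overlaps the antisense transcript Gm16170 over 8562 bases, whose counts (778 in fibrosis, 660 in control libraries) cannot be told apart from its own without strand. Of the 50-base stretches of the longest coding transcript of Trim7, 11.01% occurred also in Gm16170.

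Smaller increases were called for Trim68, Trim23 and Trim46. Trim68 was at 6.35, 8.25, 9.21, 6.50 and 8.39 CPM in fibrosis libraries against 4.81, 5.12, 6.12, 4.47 and 5.45 CPM in control libraries, without overlap (log2 fold change 0.58, SE 0.15, edgeR adjusted p = 0.0106). Trim23, which carries a GTPase domain of the ARF family, was at 15.5 ± 3.79 and 11.1 ± 1.57 CPM (SD, n = 5 each; 0.48, SE 0.17, adjusted p = 0.0404), and fibrosis 1 and 2 lay within the control range. Trim46, a microtubule organiser of the axon initial segment that has a COS box, was at 4.47 ± 1.25 and 2.95 ± 0.209 CPM (SD, n = 5 each; 0.60, SE 0.20, adjusted p = 0.0354), and fibrosis 5 lay within the control range. Trim46 overlaps the more abundant Krtcap2 on the opposite strand over 344 bases (4493 counts in fibrosis, 4744 in control libraries). Of the 3203 50-base stretches of the longest coding transcript of Trim46, 0 occurred in transcripts of another gene. The part of shared reads outside that transcript was not tested. The calls of Trim23, Trim46, Trim33 and Trim28 were lost in 10 or more of 22 other settings.

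Trim37 and Trim16 fell. Trim37, a ligase that acts at centrosomes and peroxisomes, was at 23.3, 25.6, 24.5, 28.9 and 24.1 CPM in fibrosis libraries against 37.7, 37.9, 40.2, 37.4 and 47.7 CPM in control libraries, a log2 fold change of -0.67 (SE 0.10, edgeR adjusted p = 2.17e-04). Trim16, which lacks a RING domain and takes part in the autophagy of damaged membranes, was at 4.40, 3.45, 2.33, 2.70 and 3.84 CPM in fibrosis libraries against 6.01, 6.38, 4.47, 7.52 and 5.94 CPM in control libraries (log2 fold change -0.85, SE 0.20, adjusted p = 0.00547). Neither gene had a fibrosis library inside the control range, although Trim16 came close, with 4.40 CPM in fibrosis 1 and 4.47 CPM in control 3. Trim16 overlaps Fbxw10 on the same strand over 3740 bases (173 counts in fibrosis, 134 in control libraries). Of the 3857 50-base stretches of the longest coding transcript of Trim16, 0 occurred in transcripts of another gene. The part of shared reads outside that transcript was not tested.

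Across the 41 tested TRIM genes, 4 were above every control in all fibrosis libraries (Trim3, Trim7, Trim35 and Trim68) and 5 were below (Trim2, Trim10, Trim16, Trim37 and Trim58). Among all tested genes such separation was found for 11.4% upward and 14.0% downward.

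**Figure D4:**
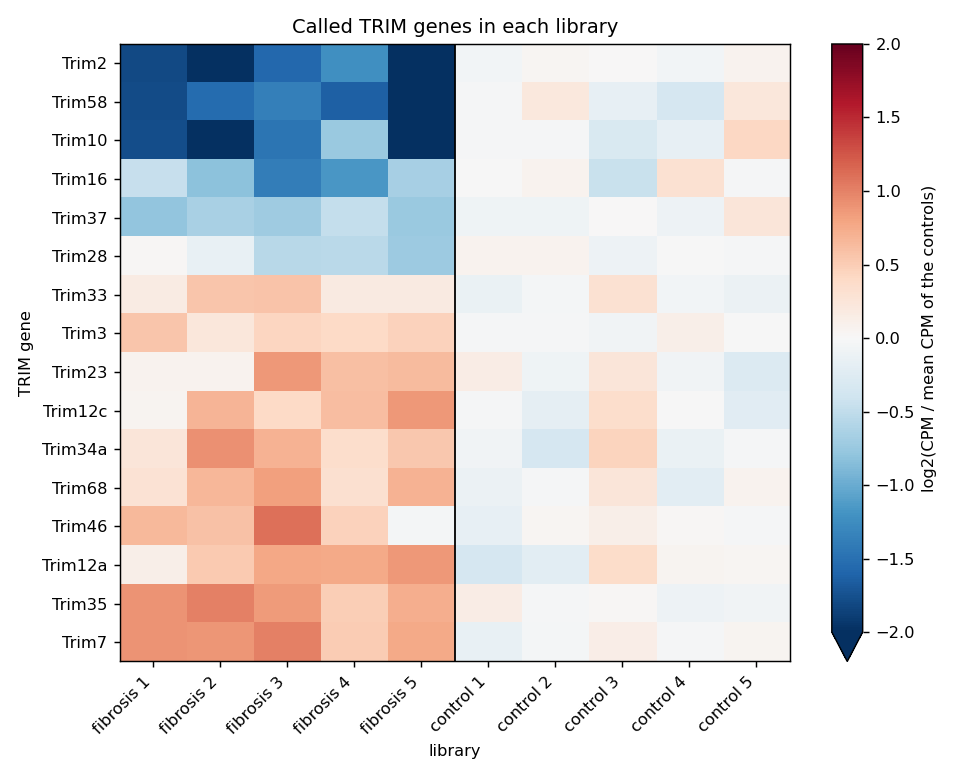
Log2 ratio of CPM to the control mean for the 16 called TRIM genes (rows) in each of the 10 libraries (columns), blue below and red above the control mean. Trim10, Trim58 and Trim2 are blue in all fibrosis libraries, and Trim35 and Trim7 are red in all of them.

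Per length, the family covered a wide range of levels. By the deposited FPKM, 17 tested TRIM genes had a mean of at least 10 over the 10 libraries, 19 were between 1 and 10, and 5 were below 1. Trim28 was highest, at 82.3 FPKM in fibrosis and 107 FPKM in control libraries. Trim35 was at 44.6 and 25.9 FPKM and Trim7 at 14.6 and 8.38 FPKM in fibrosis and control libraries. Trim10, a red cell gene, reached 31.9 FPKM in control libraries and 10.2 FPKM in fibrosis. In control libraries its mean thus stood above that of Trim35. Trim2 was lowest of the tested genes by FPKM, at 0.108 and 0.422 in fibrosis and control libraries. The FPKM of Trim2 rests on a gene length of 19751 bases, against 7428 bases for its longest coding transcript. By mean CPM, Trim2 (2.14 in fibrosis, 8.35 in control libraries) was above Trim58 (1.79 and 5.89).

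The 5 uncalled members with the highest FPKM outside these groups were Trim8, Trim27, Trim11, Trim59 and Trim41. Trim8, a regulator of cytokine signalling, had a log2 fold change of 0.03 (SE 0.10, edgeR adjusted p = 0.836), and Trim41 had 0.00 (SE 0.08, adjusted p = 0.987). Trim27 had -0.21 (SE 0.09, adjusted p = 0.0740), Trim11 -0.17 (SE 0.09, adjusted p = 0.175) and Trim59 0.22 (SE 0.11, adjusted p = 0.127). Their standard errors, from 0.08 to 0.11, were below the median of 0.15 over the tested TRIM genes.

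**Figure D5:**
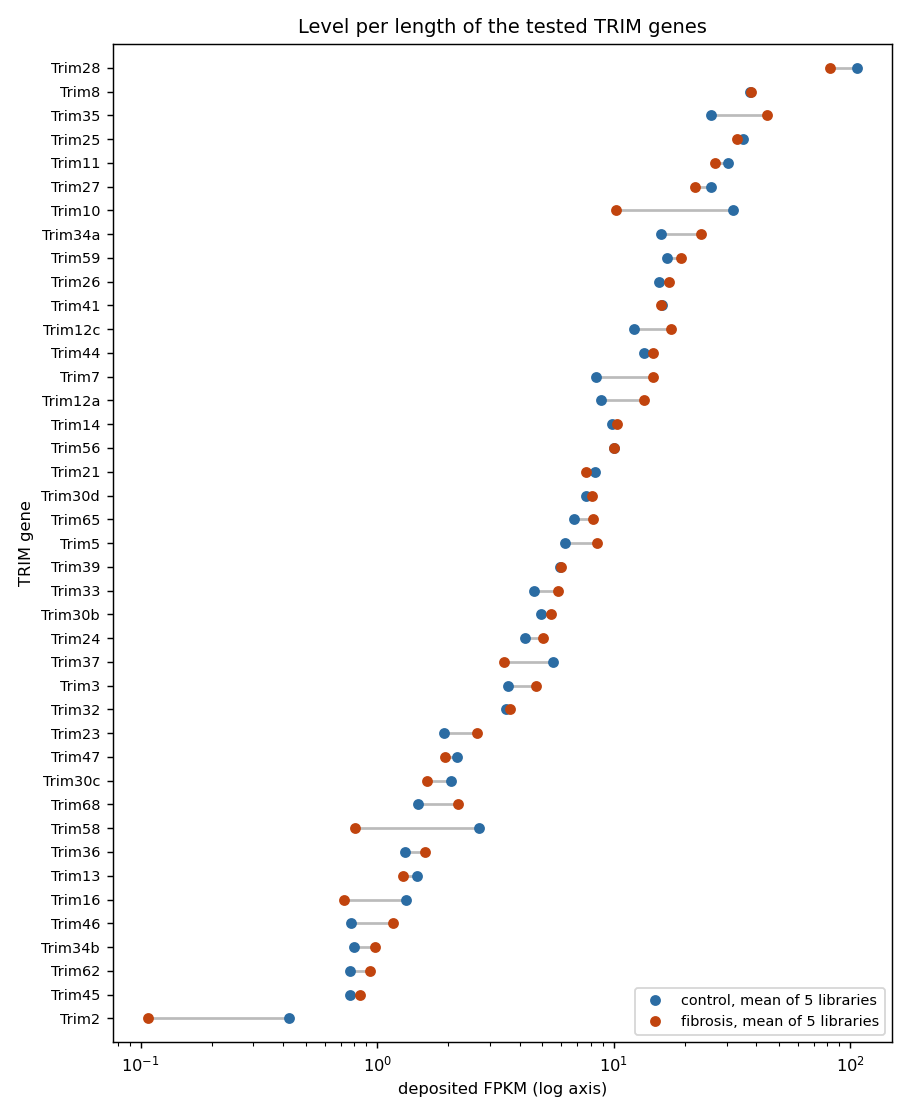
Deposited FPKM (log axis) of the tested TRIM genes, with the mean of the 5 fibrosis and the 5 control libraries for each gene, ordered by level. Trim28 is at the top with 82.3 and 107 FPKM in fibrosis and control libraries, and Trim2 is at the bottom with 0.108 and 0.422 FPKM.

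The other 26 TRIM genes had too few reads to be tested. Of these, 5 had 0 counts in all libraries, 11 had 1 to 10 counts in total, and 10 had more, with at most 24 counts in any library. All 4 members of the muscle group, Trim54, Trim55, Trim63 and Trim72, were among the untested genes. The interferon-linked Trim6 had 32 counts in fibrosis and 37 in control libraries in total, and Trim38 had 1 and 6. Of 5 TRIM proteins whose symbols follow another pattern 3 were tested (Pml, Mid1 and Mefv), and 0 were called by edgeR at an adjusted p under 0.05, against 1 at an unadjusted p under 0.05.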

How the data were processed

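Poly-A RNA of splenic B cells was sequenced in 10 libraries, per the labels' protocols. The build was GRCm38 (mm10), per the submitters' processing notes. No source used here names the aligner, the counter or the use of strand. The authors deposited whole-number counts per gene, not normalised, and FPKM, which divide counts by gene length and library size. The deposited listing of gene coordinates was matched to GENCODE M21, where 65 of 67 members had the same coordinates. From the counts, edgeR 4.0.16 (R 4.3.3) kept 14283 genes by filterByExpr (99.9% of counts), scaled libraries by TMM and compared the groups by a robust quasi-likelihood test, with Benjamini-Hochberg adjustment and calls at an adjusted p under 0.05. Standard errors were derived from the fold change and the F statistic of each gene (size of the log2 value over the root of F). CPM are TMM-scaled. The biological coefficient of variation was 0.183. The fit was tested on simulated counts.

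Groups follow the labelled disease state. The members, role lists and marker lists were chosen with earlier results of these data known, and 1 listed erythroid marker is not reported here. Named with values are Trim10, Trim58, every tested interferon-linked and TIF1 member, every other called member, and the 5 other uncalled members of highest FPKM. Of the related lists, the called gene with the smallest p per direction is named. Genes named beyond this, such as Trim32, Trim71, Trim6, Trim38, the muscle group and Trim47, were chosen after their values were seen. Alternatives were other scalings, filters and tests (DESeq2 1.42.0, limma 3.58.1), a replicate block and the omission of libraries. For limma on FPKM, pseudocounts of 1 and 0.1 were added before taking log2, so fold changes of low genes are understated.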

Additional observations from a re-analysis of the deposited data

Results flagged for a closer look

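In each group of 5 libraries, the highest and lowest library of every named TRIM gene was compared with the others by Dixon's criterion. Of 66 groups checked, 6 had a library apart from the rest, and chance alone flags about 1 in 20 groups. Trim25 was at 287 CPM in fibrosis 2, where the next library had 189 CPM. In control 3, Trim33 was at 55.9 CPM (next 44.1), Trim30d at 38.5 CPM (next 27.2) and Trim5 at 31.6 CPM (next 22.4). In control 5, Trim37 was at 47.7 CPM (next 40.2) and Trim34b at 2.0 CPM (next 1.41). Trim5 was called when control 3 was left out, and Trim37 was called with and without control 5. Trim25 was called neither with nor without fibrosis 2, and without that library its log2 fold change was -0.25 (edgeR adjusted p = 0.0588).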

How the results depend on the processing

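Of the 16 called TRIM genes, 10 kept their call in all 22 alternative settings: Trim10, Trim58, Trim2, Trim37, Trim16, Trim35, Trim7, Trim12a, Trim34a and Trim68. The log2 fold change of Trim10 ranged from -1.96 to -1.48 and that of Trim58 from -1.83 to -1.03. Trim2 ranged from -2.22 to -0.36, the last on log2(FPKM + 1). The number called higher fell from 10 to 4 at an adjusted p under 0.01, and to 4 when at least a 1.5-fold difference was asked for. Elsewhere it was 7 to 13, and the number called lower was 5 to 7. Leaving out 1 library in turn gave 7 to 11 higher and 5 to 7 lower.

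The call was lost for Trim46 in 13 settings, for Trim23 and Trim28 in 12 and for Trim33 in 10. Trim3 lost it without a filter (edgeR adjusted p = 0.0568) and Trim12c without fibrosis 4 and 5. Trim5, Trim24, Trim26, Trim27 and Trim65 gained a call in some settings. The cause was not tested.

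Small differences changed sign. Trim25 was at 0.065 with limma voom and 0.035 without fibrosis 4 and 5. With library size only, Trim8 was at -0.077, Trim56 at -0.078, Trim14 at -0.015 and Trim30d at -0.0067. Without a filter, Trim8 was at -0.017 and Trim56 at -0.027. On log2(FPKM + 1) and log2(FPKM + 0.1), Trim56 was at -0.0091 and -0.011. Leaving out 1 library in turn gave -0.047 to 0.086 for Trim8, -0.095 to 0.12 for Trim56 and -0.033 to 0.17 for Trim14.

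Replicate numbers are shared by the groups, and the deviations of libraries with the same number correlated between -0.287 and 0.472. Of the 5 fibrosis libraries, 2 correlated best with the control of the same number. With so few libraries, these values do not settle whether the numbers pair them. With the replicate block, 11 TRIM genes were called higher and 6 lower, of which 9 and 6 were among those called without it. Genes with few reads limit the rest: 26 of 67 TRIM genes could not be tested.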

Other observations

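Trim47, chosen after its values were seen, was not called but differed among the fibrosis libraries. It was at 3.73, 2.71, 2.03, 9.99 and 8.78 CPM in fibrosis 1 to 5 and at 6.45, 6.11, 4.68, 7.52 and 5.15 CPM in control 1 to 5 (log2 fold change -0.15, SE 0.39, edgeR adjusted p = 0.798). Fibrosis 4 and 5 were above every control library and fibrosis 1 to 3 below. The same fibrosis 4 and 5 had the highest sums of platelet markers, at 588% and 621% of the control mean, and of neutrophil and macrophage markers. Trim47 overlaps Trim65 on the same strand over 5365 bases, and the part of other cells or of shared reads in its level was not tested.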
